A study of Homo sapiens with 12 samples.

Results

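The genes described here were 31 genes of cholesterol and fatty acid synthesis, taken by symbol out of 20003 gene symbols in the FPKM tables (fragment counts scaled to transcript length and to the mapped fragments of the library). They fell into 4 branches. The mevalonate and isoprenoid branch held 8 genes (HMGCS1, MVK, PMVK, MVD, IDI1, FDPS, GGPS1 and ACAT2), the squalene to cholesterol branch held 11 genes (FDFT1, SQLE, LSS, CYP51A1, TM7SF2, MSMO1, NSDHL, HSD17B7, EBP, SC5D and DHCR7), the regulators and transport group held 5 genes (INSIG1, STARD4, SREBF1, SREBF2 and SCAP), and the fatty acid branch held 7 genes (FASN, SCD, ACACA, ACLY, FADS1, FADS2 and ELOVL6). The 19 genes of the first 2 branches are called the sterol branch below. All 31 genes were measured above 0 in all 12 libraries, and all 31 passed the filter on low values.

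RNA sequencing was performed on 2 human acute myeloid leukemia cell lines. NB4 is an acute promyelocytic leukemia line that carries the PML-RARα fusion, and Kasumi-1 is a line that carries the AML1-ETO fusion of the t(8;21) translocation. Each line was incubated for 48 h by the labels (a longer time is also given in the study's text) with DMSO as the control or with 1 μM OGP46, a kaurene diterpenoid made from Oridonin, with 3 samples in each of the 4 groups. Each line is 1 established culture, and the labels do not say whether the 3 samples of a group came from separate cultures. The study speaks of independent experiments without tying them to the numbered samples. Where the samples are not separate cultures, the p-values measure the spread between these samples only.

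Cholesterol is made from acetyl-CoA by way of mevalonate, farnesyl diphosphate, squalene and lanosterol. The transcription factor SREBP-2 (SREBF2) mainly drives the genes of this route, and SREBP-1 (SREBF1) mainly drives those of fatty acid synthesis. Both precursors are escorted by SCAP out of the endoplasmic reticulum for cleavage when sterols are low, and they are held back by INSIG1 when sterols are high. Dividing leukemia cells use both routes to build membranes.

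The FPKM sum ranged from 248207 to 310262 per library, and 9339 to 9746 genes reached 1 FPKM. The read depth behind these values is unknown, so no counting interval was given. The genes of t(8;21) cells set the lines apart. The summed level of 4 genes of t(8;21) cells was 147 to 154 FPKM in the Kasumi-1 controls and 0.468 to 2.38 FPKM in the NB4 controls. Sample 3 of the NB4 controls stood apart by 1.31 FPKM of CD34, which is 1.35% of the mean Kasumi-1 control level. TRH (0.202 FPKM, at 0 in the other NB4 libraries) and RUNX1T1 (0.0762 FPKM) were also highest there among the NB4 libraries, while POU4F1 was not. A share of 1.35% of Kasumi-1 RNA would account for at most 8.65% of the level of any of the 31 genes in that sample (TM7SF2), with a median of 1.90%. The 5 promyelocyte granule genes did not mark NB4 out: they summed to 2600 to 3940 FPKM in the NB4 controls and to 9610 to 11900 FPKM in the Kasumi-1 controls, and all 5 were called lower in NB4. MPO made up 2394 to 3323 FPKM of the sum in NB4, while ELANE was at 0.504, 3.30 and 14.5 FPKM. ELANE was thus highest in sample 3 of the NB4 controls, whereas the other granule genes were highest in sample 2. Both erythroid markers were at 0 in all libraries. CD3D was at 13.5 to 20.4 FPKM in the NB4 controls while CD3E was between 0 and 0.0608 FPKM there, and EPCAM made up the stromal and epithelial signal of Kasumi-1 with 41.4 to 56.0 FPKM in the controls. In such bulk samples, fewer cells of a type and less RNA per cell cannot be told apart.

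The promoter windows of RefSeq (assembly GRCh38.p14, the hg38 build of the files), which run from 250 bases before to 50 bases after a transcript start, were found for 27 of the 31 genes, in 38 windows. A sterol regulatory element was searched on both strands as TCACNCCAC, together with the CCAAT box (CCAAT), the E-box (CACGTG) and the GC box (GGGCGG). None of these 4 strings can hold another in full. The sterol regulatory element was found in 1 of the 38 windows, that of SREBF2, against 1.13% of all 35116 windows. A CCAAT box was found in 65.8% of the 38 windows and in 34.6% of all windows, and a GC box in 86.8% against 45.0%. An E-box was found in 13.2% against 7.26%. These matches are a description of the letters, and several genes have more than 1 window. The following 5 windows are shown because TM7SF2, LSS, SCD and SREBF1 are 4 of the 6 genes past the adjusted p in NB4 with the sample number as a block, below, and because the SREBF2 window holds the only match to the sterol regulatory element. The windows of the other 2 genes, EBP and FADS1, are not shown. The EBP window held 3 CCAAT boxes, and the FADS1 window held no CCAAT box. Capitals mark the sterol regulatory element and the CCAAT box, which reads ATTGG when it lies on the other strand.
TM7SF2 (chr11:65111622-65111921, plus strand): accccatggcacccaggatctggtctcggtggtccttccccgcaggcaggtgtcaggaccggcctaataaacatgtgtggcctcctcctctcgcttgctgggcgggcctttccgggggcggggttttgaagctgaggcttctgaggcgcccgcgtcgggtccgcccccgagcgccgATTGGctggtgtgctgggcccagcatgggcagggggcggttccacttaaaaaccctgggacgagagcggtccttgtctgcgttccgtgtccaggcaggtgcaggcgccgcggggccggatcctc
LSS (chr21:46228725-46229024, minus strand): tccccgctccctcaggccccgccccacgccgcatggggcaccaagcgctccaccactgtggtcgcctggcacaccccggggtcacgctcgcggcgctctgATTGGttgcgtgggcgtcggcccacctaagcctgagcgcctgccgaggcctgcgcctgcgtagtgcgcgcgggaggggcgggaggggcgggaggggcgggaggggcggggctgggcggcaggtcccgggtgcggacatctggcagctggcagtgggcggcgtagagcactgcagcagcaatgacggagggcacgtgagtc
SCD (chr10:100346983-100347282, plus strand): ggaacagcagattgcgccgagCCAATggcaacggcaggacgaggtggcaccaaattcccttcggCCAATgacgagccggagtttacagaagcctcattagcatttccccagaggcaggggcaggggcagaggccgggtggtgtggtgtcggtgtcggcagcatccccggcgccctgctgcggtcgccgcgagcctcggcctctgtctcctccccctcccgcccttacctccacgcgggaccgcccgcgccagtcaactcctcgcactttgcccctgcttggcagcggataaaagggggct
SREBF1 (chr17:17836937-17837236, minus strand): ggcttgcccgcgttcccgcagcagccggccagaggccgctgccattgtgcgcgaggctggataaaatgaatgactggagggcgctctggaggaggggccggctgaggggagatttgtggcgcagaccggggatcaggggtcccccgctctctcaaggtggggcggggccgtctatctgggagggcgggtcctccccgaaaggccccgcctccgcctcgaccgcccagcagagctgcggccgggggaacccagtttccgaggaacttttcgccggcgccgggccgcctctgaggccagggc
SREBF2 (chr22:41832855-41833154, plus strand): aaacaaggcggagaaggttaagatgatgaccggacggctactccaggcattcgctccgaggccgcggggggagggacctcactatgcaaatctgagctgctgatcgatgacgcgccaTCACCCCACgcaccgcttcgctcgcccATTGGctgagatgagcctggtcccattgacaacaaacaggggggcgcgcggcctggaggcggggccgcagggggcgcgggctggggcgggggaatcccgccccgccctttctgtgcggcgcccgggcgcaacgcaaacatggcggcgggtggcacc
In SREBF2 the sterol regulatory element TCACCCCAC began 133 bases before the start, with a reversed CCAAT box downstream of it. The SCD window held 2 CCAAT boxes, and those of TM7SF2 and LSS held 1 each. The SREBF1 window held neither motif in this stretch. FADS1 and FADS2 lie on opposite strands of chromosome 11, and their RefSeq starts are 599 and 800 bases apart within a stretch that both genes cover. Whether the counting used strand is not given in the sources used here, so reads of this stretch are uncertain between the 2 genes.

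The first question was how far the lines differ in these genes without treatment. The genes that differed were mostly at a lower level in NB4 than in Kasumi-1. In the comparison of the controls by limma on log2(FPKM + 0.1), with Benjamini-Hochberg adjustment and a log2 difference of at least 0.58 (1.49-fold), 14 of the 31 genes were lower in NB4 and 2 were higher. Over all 12302 genes tested, 29.7% were lower and 22.7% were higher in NB4. The median log2 difference was −0.52 in the sterol branch and −0.36 in the fatty acid branch, against −0.10 over all genes. The 14 lower genes were 2 of 8 in the mevalonate branch, 7 of 11 in the squalene branch, 2 of 5 among the regulators and 3 of 7 in the fatty acid branch. Line and any batch that goes with the line cannot be told apart in this comparison.

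**Figure D1:**
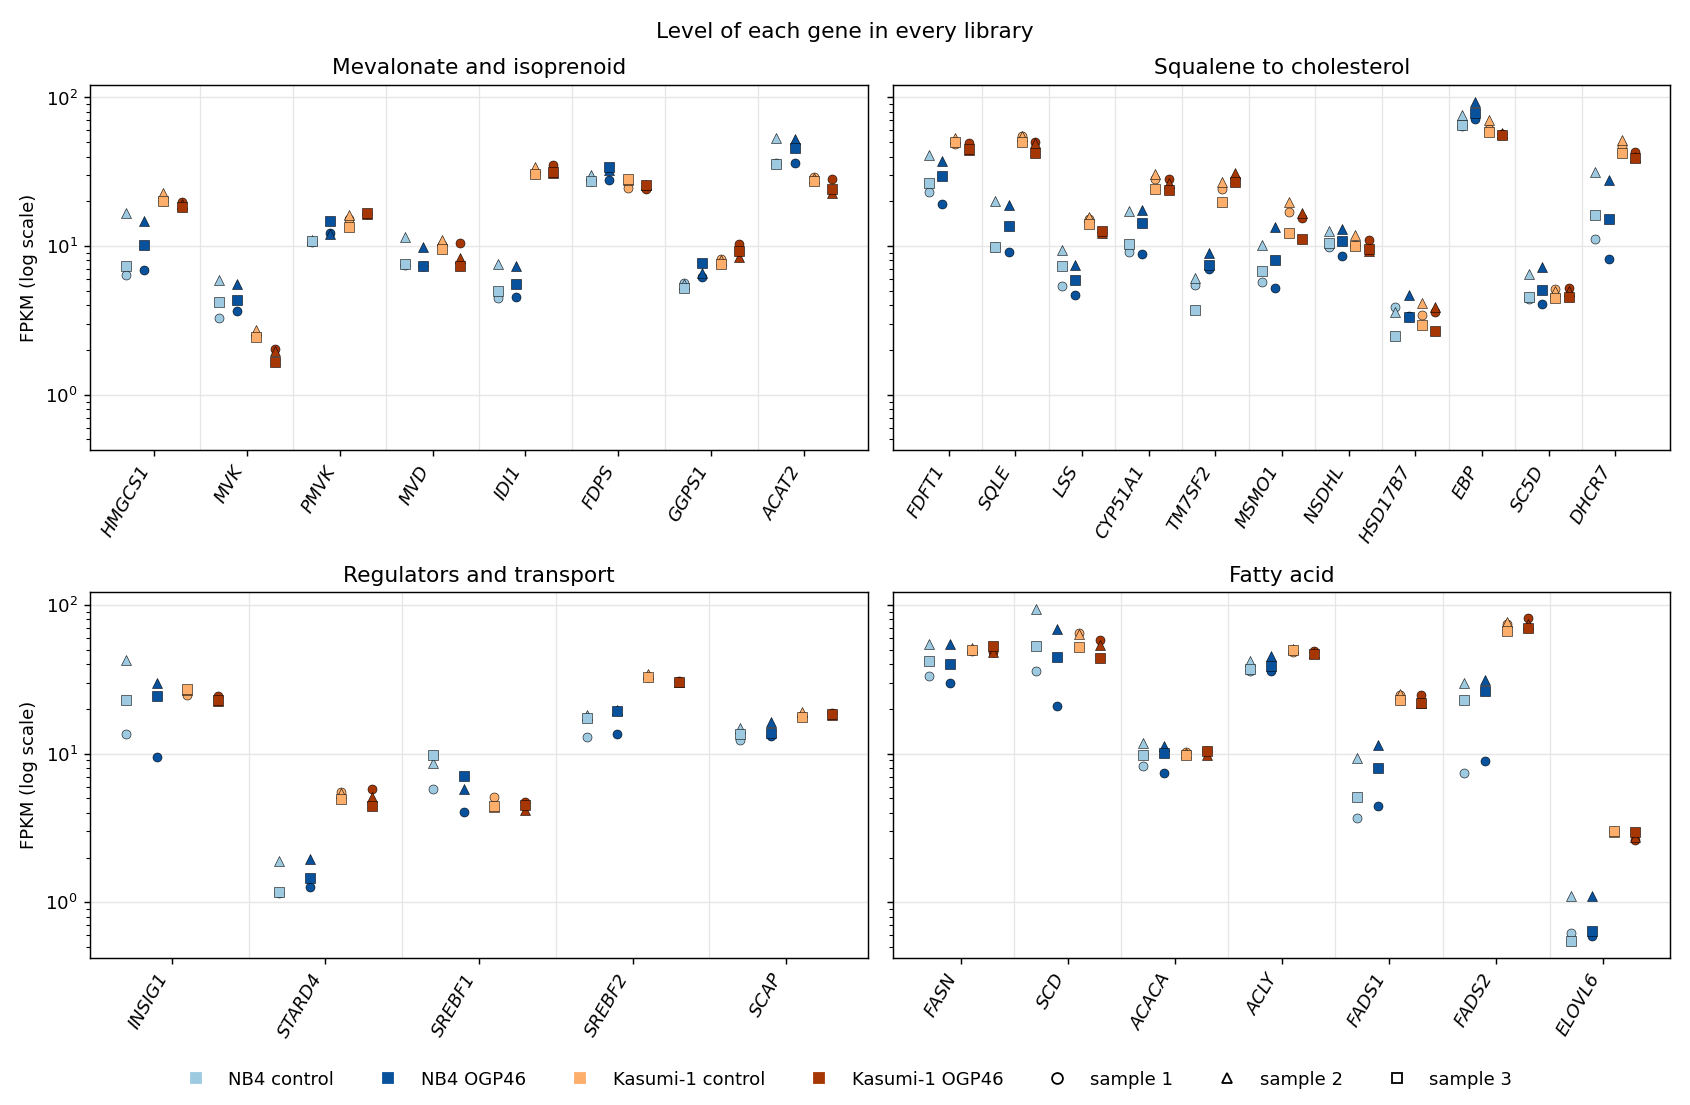
Level of each of the 31 genes in every library in FPKM on a log axis, in 4 panels by branch. Colors mark the 4 groups and symbols mark the sample number. It can be seen that IDI1, SQLE, TM7SF2, STARD4, FADS1 and ELOVL6 sat far lower in NB4 than in Kasumi-1, and that the NB4 samples were spread more widely than the Kasumi-1 samples in most genes.

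In the mevalonate branch, IDI1, which isomerizes isopentenyl diphosphate, was at 4.46, 7.57 and 4.96 FPKM in the NB4 controls and at 30.8, 34.1 and 30.5 FPKM in the Kasumi-1 controls. The groups were far apart, with a log2 difference of −2.50 (SE 0.17, adjusted p = 1.79e-06). HMGCS1, which makes HMG-CoA, was at 6.35, 16.6 and 7.37 FPKM in NB4 and at 20.2, 22.7 and 20.1 FPKM in Kasumi-1, a difference of −1.18 (SE 0.30, adjusted p = 0.00594). In contrast, the mevalonate kinase MVK was higher in NB4, at 3.30, 5.88 and 4.20 FPKM against 2.49, 2.72 and 2.45 FPKM (0.74, SE 0.19, adjusted p = 0.00581). Without sample 2 of the NB4 controls the difference of MVK was 0.53 and fell below the fold minimum. The thiolase ACAT2 was 0.53 higher in NB4 (adjusted p = 0.00765), just under the fold minimum, and FDPS, which makes farnesyl diphosphate, was at 28.2 ± 1.49 FPKM in NB4 and 26.9 ± 2.05 FPKM in Kasumi-1 (SD, n = 3 each). PMVK and GGPS1 were lower in NB4 by less than the fold minimum (−0.46 and −0.52), and MVD did not pass the test (−0.24).

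In the squalene to cholesterol branch, the steps were not lower to the same degree. TM7SF2, a sterol C14-reductase, was at 5.47, 6.10 and 3.70 FPKM in the NB4 controls and at 24.1, 27.1 and 19.9 FPKM in the Kasumi-1 controls (−2.22, SE 0.18, adjusted p = 5.7e-06). SQLE, the squalene epoxidase, was at 9.80, 20.2 and 9.91 FPKM in NB4 and at 54.9, 55.4 and 50.3 FPKM in Kasumi-1 (−2.09, SE 0.24, adjusted p = 5.05e-05). Neither gene overlapped between the lines. DHCR7, which makes cholesterol from 7-dehydrocholesterol, was at 11.2, 31.8 and 16.2 FPKM in NB4 and at 46.9, 51.7 and 42.3 FPKM in Kasumi-1 (−1.38, SE 0.31, adjusted p = 0.003). The lanosterol demethylase CYP51A1 was at 9.17, 17.2 and 10.3 FPKM against 28.3, 30.5 and 24.1 FPKM (−1.22, SE 0.21). The methylsterol oxidase MSMO1 was at 5.73, 10.2 and 6.80 FPKM against 17.1, 19.8 and 12.3 FPKM (−1.12, SE 0.22). LSS, which closes the rings of lanosterol, was at 5.42, 9.37 and 7.38 FPKM against 15.2, 15.6 and 14.0 FPKM (−1.04, SE 0.17), and the squalene synthase FDFT1 was at 23.1, 41.0 and 26.6 FPKM against 48.7, 53.4 and 50.6 FPKM (−0.79, SE 0.18). The adjusted p of these 4 genes lay between 0.000482 and 0.00329. By contrast, NSDHL, HSD17B7, EBP and SC5D, which also act between lanosterol and cholesterol, differed by −0.09 to 0.11 with adjusted p from 0.317 to 0.78, within the spread of the samples.

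Among the regulators, the 2 SREBP genes differed in opposite directions. SREBF2 was at 13.01, 18.2 and 17.3 FPKM in the NB4 controls and at 32.6, 34.3 and 32.6 FPKM in the Kasumi-1 controls (−1.04, SE 0.12, adjusted p = 4.91e-05). SREBF1 was higher in NB4, at 5.81, 8.66 and 9.75 FPKM against 5.11, 4.38 and 4.45 FPKM (0.75, SE 0.18, adjusted p = 0.00386). Both pairs of groups were without overlap, which for SREBF1 rested on a gap between 5.81 and 5.11 FPKM. STARD4, a carrier of cholesterol between membranes, was at 1.16, 1.89 and 1.18 FPKM in NB4 and at 5.55, 5.40 and 4.94 FPKM in Kasumi-1 (−1.87, SE 0.18, adjusted p = 1.46e-05). SCAP was lower in NB4 by 0.43 on the log2 scale, under the fold minimum, and INSIG1 did not pass the test (−0.14, SE 0.33).

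In the fatty acid branch, the difference lay in the desaturases FADS1 and FADS2 and the elongase ELOVL6. FADS1 was at 3.69, 9.40 and 5.11 FPKM in NB4 and at 24.8, 25.2 and 23.0 FPKM in Kasumi-1 (−2.09, SE 0.27, adjusted p = 0.000112). FADS2 was at 7.43, 30.0 and 22.9 FPKM against 74.6, 77.2 and 67.0 FPKM (−2.07, SE 0.42, adjusted p = 0.00173). ELOVL6 was at 0.623, 1.10 and 0.547 FPKM against 3.01, 2.96 and 3.03 FPKM (−1.91, SE 0.22, adjusted p = 4.58e-05). The core enzymes were closer. ACLY, which splits citrate into acetyl-CoA, was lower in NB4 by 0.36 on the log2 scale (adjusted p = 0.00217), while FASN, ACACA and the stearoyl-CoA desaturase SCD differed by −0.24, −0.03 and −0.09 and did not pass the test.

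**Figure D2:**
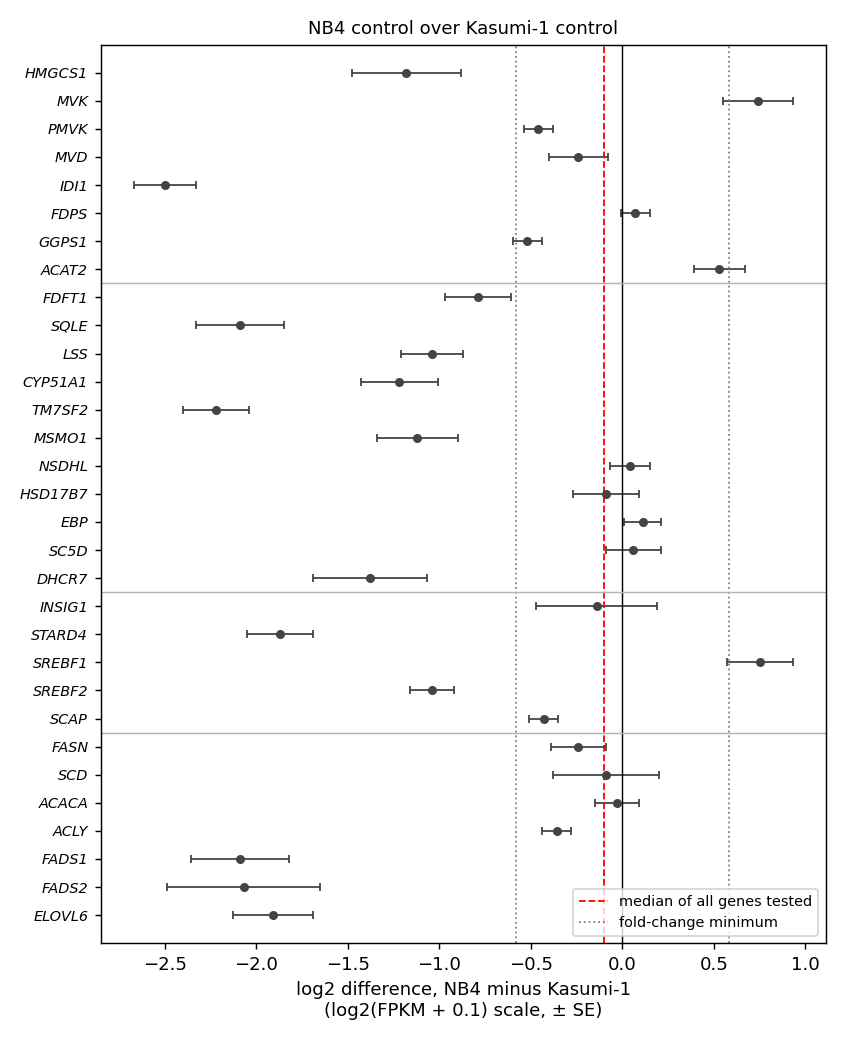
Log2 difference between the NB4 and the Kasumi-1 controls for the 31 genes (points, with SE as bars; 3 samples per line). The dashed line is the median of all genes tested (−0.10) and the dotted lines are the fold minimum (0.58 in either direction). It can be seen that 14 genes lie beyond the left dotted line and that MVK and SREBF1 lie beyond the right one.

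The 31 genes varied far more between the 3 NB4 samples of a group than between the Kasumi-1 samples. The median SD on the log2 scale among genes of at least 1 FPKM was 0.372 over 30 of the 31 genes in the NB4 controls, against 0.116 over all genes, and 0.323 against 0.135 in the OGP46 group. In the Kasumi-1 controls it was 0.0875 against 0.104, and 0.0951 against 0.084 with OGP46. In the NB4 controls, 21 of these 30 genes had an SD above the 90th percentile of all genes (0.267). The genes went up and down together. Sample 2 was the highest of the 3 in both NB4 groups for 26 of the 31 genes, while 20.5% of all genes had this pattern. In Kasumi-1 it was so for 4 of the 31 genes, against 17.4% of all genes. Other joint patterns were present in Kasumi-1, within its smaller spread. Sample 3 was the lowest for 24 of 31 genes in the Kasumi-1 controls, against 38.9% of all genes. With OGP46 there, sample 1 was the highest for 22 of 31 genes, against 31.5% of all genes. Sample 1 was the lowest for 25 of 31 genes in the NB4 controls and for 29 of 31 genes in the NB4 OGP46 group, while it was the lowest for 23.1% and 50.6% of all genes.

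The size of this spread can be seen in INSIG1, which was at 13.6, 42.9 and 23.0 FPKM in the NB4 controls and at 9.55, 30.1 and 24.5 FPKM with OGP46. SCD was at 35.9, 93.9 and 52.9 FPKM in the controls and at 21.04, 69.4 and 44.7 FPKM with OGP46. FADS2 varied most of all, with an SD of 1.06 on the log2 scale in the controls, while PMVK varied least (0.0187). The median deviation of the 31 genes from their group mean was −0.30, 0.38 and −0.09 on the log2 scale in samples 1, 2 and 3 of the NB4 controls and −0.33, 0.33 and 0.01 in those of the OGP46 group. Together the 31 genes made up 0.166, 0.276 and 0.202% of the FPKM sum in the NB4 controls and 0.275 to 0.285% in the Kasumi-1 controls. Other genes moved with the sample number in NB4. CTSG, a granule protease of promyelocytes, was at 18.2, 86.3 and 29.5 FPKM in the controls and 5.82, 40.7 and 9.45 FPKM with OGP46. ABCA1, the cholesterol efflux pump, was lowest in sample 2 of both groups (2.79, 1.25 and 3.58 FPKM, then 2.88, 1.55 and 4.002 FPKM). Sample 2 was the lowest for 34.1% of all genes in the NB4 controls and for 35.2% with OGP46. Other genes of sterol efflux and storage went both ways: NR1H3 and NCEH1 were also lowest in sample 2 of both groups, while SCARB1 and LIPA were highest there. The part of these genes in the spread was not tested.

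**Figure D3:**
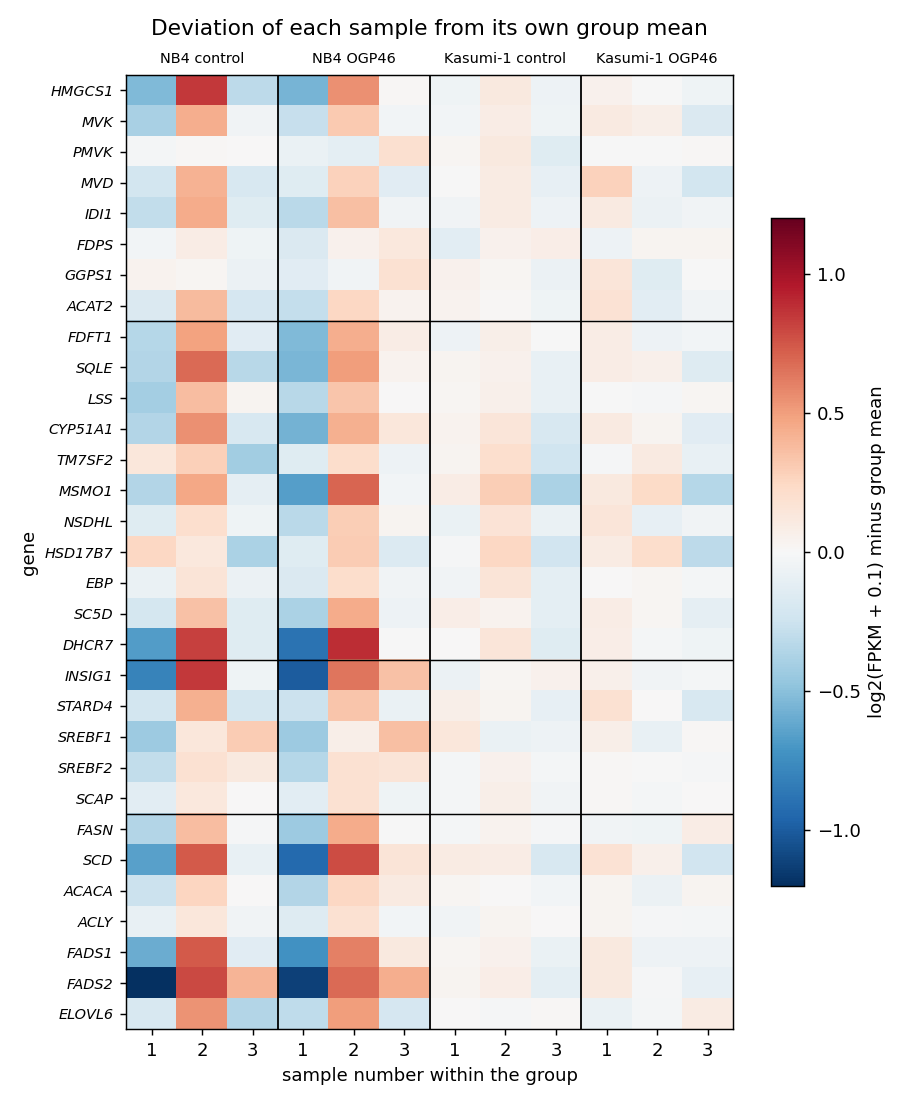
Deviation of each library from the mean of its own group for the 31 genes, on the log2(FPKM + 0.1) scale (red is above and blue is below the group mean). It can be seen that sample 2 is above and sample 1 is below the mean for most genes in both NB4 groups, with median deviations of 0.38 and −0.30 in the controls, whereas the Kasumi-1 columns are pale.

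The second question was whether OGP46 changed these genes in NB4 cells. Without regard to the sample numbers, none of the 31 genes was called (lowest adjusted p = 0.0885, TM7SF2). By limma, 3 of them had an unadjusted p below 0.05, and the share of all genes at that p alone was not counted. By the call rule, 1.45% of all 11750 genes tested were up-regulated and 0.111% down-regulated. With the sample number as a block, TM7SF2 was called up-regulated, while 5.06% of all genes were up-regulated and 1.15% down-regulated. The block was used because same-numbered NB4 samples deviated together over all genes. The level of all genes shifted as well, with a median log2 fold change of 0.18. Against this, the median was 0.11 in the sterol branch and 0.04 in the fatty acid branch, and 25 of the 31 genes lay below the median of all genes. The place of the sterol branch depended on the samples and the filter: its median minus that of all genes was −0.06, but 0.09 without control sample 2, 0.05 without OGP46 sample 1 and 0.06 without the filter on low values. These fits used no block, so the same-numbered partner of a left-out sample stayed in. Sample 2 was the highest NB4 control for 28 of the 31 genes, against 34.2% of all genes.

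TM7SF2 was at 5.47, 6.10 and 3.70 FPKM in the NB4 controls and at 6.98, 9.002 and 7.41 FPKM with OGP46. All 3 treated samples were above all 3 controls, and the log2 fold change was 0.63 (SE 0.12, adjusted p = 0.00455 with the block). Without sample 3 of the NB4 controls, which carried CD34 and had the lowest TM7SF2 level, the fold change was 0.42 (adjusted p = 0.235 without the block). Kasumi-1 RNA at the CD34 share given above would add to that TM7SF2 level (8.65% of it), and its part in the change was not tested. EBP, a sterol isomerase, was at 64.6, 76.4 and 65.0 FPKM in the controls and at 72.1, 93.8 and 79.1 FPKM with OGP46 (0.25, SE 0.08, adjusted p = 0.041 with the block). FADS1 went from 3.69, 9.40 and 5.11 FPKM to 4.45, 11.4 and 8.06 FPKM (0.39, SE 0.11, adjusted p = 0.0227 with the block). Both were higher in each same-numbered pair, but by less than the fold minimum, and without 1 sample and without the block FADS1 ranged from 0.09 to 0.76.

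SREBF1 and SCD were at lower levels with OGP46 in every pair. SREBF1 went from 5.81, 8.66 and 9.75 FPKM to 4.04, 5.79 and 7.09 FPKM, a log2 fold change of −0.51 (SE 0.09, adjusted p = 0.00337 with the block, 0.19 without it). SCD, with the values given above, changed by −0.48 (SE 0.10, adjusted p = 0.00679 with the block, 0.486 without it). LSS went from 5.42, 9.37 and 7.38 FPKM to 4.69, 7.45 and 5.91 FPKM (−0.28, SE 0.09, adjusted p = 0.0485 with the block). All 3 fold changes were smaller than the fold minimum, so none was called. When 1 sample was left out and no block was used, the fold change ranged from −0.73 to −0.30 for SREBF1, from −0.87 (without OGP46 sample 2) to −0.02 (without OGP46 sample 1) for SCD, and from −0.49 to −0.10 for LSS. DHCR7 went from 11.2, 31.8 and 16.2 FPKM to 8.14, 28.0 and 15.1 FPKM (−0.25, adjusted p = 0.0794 with the block), and INSIG1 changed by −0.31 (adjusted p = 0.0715 with the block). Treated and control samples overlapped in all of these genes except TM7SF2.

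By adjusted p alone, a rule applied after the values were seen, 3 of the 31 genes were higher and 3 were lower with the block, against 21% and 1.88% of all genes. When each library was also centred on its median, 1 gene was higher (TM7SF2, 0.44, adjusted p = 0.0273) and 8 were lower, against 5.71% and 6.64% of all genes. The 8 were FDFT1, LSS, DHCR7, INSIG1, SREBF1, FASN, SCD and ACACA. In that fit SREBF1 (−0.71, SE 0.07, adjusted p = 0.00285) and SCD (−0.68, SE 0.07, adjusted p = 0.00306) passed the fold minimum and were called down-regulated, and TM7SF2 was no longer called. The FPKM sums were 248207 to 256268 in the NB4 controls and 263341 to 291523 with OGP46, and their part in the shift of all genes was not tested. FASN, the fatty acid synthase, was at 33.3, 54.8 and 42.0 FPKM in the controls and 29.8, 55.1 and 40.3 FPKM with OGP46. ACACA, the acetyl-CoA carboxylase, was at 8.23, 11.8 and 9.86 FPKM and then 7.36, 11.3 and 10.2 FPKM. On the deposited scale these 2 genes changed by −0.07 and −0.06, within the spread.

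Other genes in NB4 did not pass the adjusted p with the block. The phosphomevalonate kinase PMVK was at 10.6, 10.9 and 10.8 FPKM in the controls and 12.3, 12.0 and 14.9 FPKM with OGP46, without overlap (0.27, SE 0.10, adjusted p = 0.0616 with the block). GGPS1, which makes geranylgeranyl diphosphate, was at 5.66, 5.58 and 5.22 FPKM in the controls and 6.18, 6.62 and 7.74 FPKM with OGP46, without overlap (0.31, adjusted p = 0.0564 with the block). MVD, the mevalonate diphosphate decarboxylase, was at 7.41, 11.6 and 7.53 FPKM and then 7.30, 9.79 and 7.34 FPKM (−0.10). MVK went from 3.30, 5.88 and 4.20 FPKM to 3.68, 5.57 and 4.35 FPKM (0.04), and its sign turned when the libraries were rescaled. Among the regulators, SCAP was at 12.4, 14.8 and 13.6 FPKM and then 13.1, 16.3 and 13.8 FPKM (0.08). Over the 31 genes, 10 were higher in all 3 same-numbered pairs and 5 were lower (MVD, LSS, DHCR7, SREBF1 and SCD), while 52.9% of all genes were higher in all 3 pairs and 6.32% were lower. Without overlap of the groups, 3 were higher (TM7SF2, PMVK and GGPS1) and 0 were lower, and the share of all genes was not counted.

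**Figure D4:**
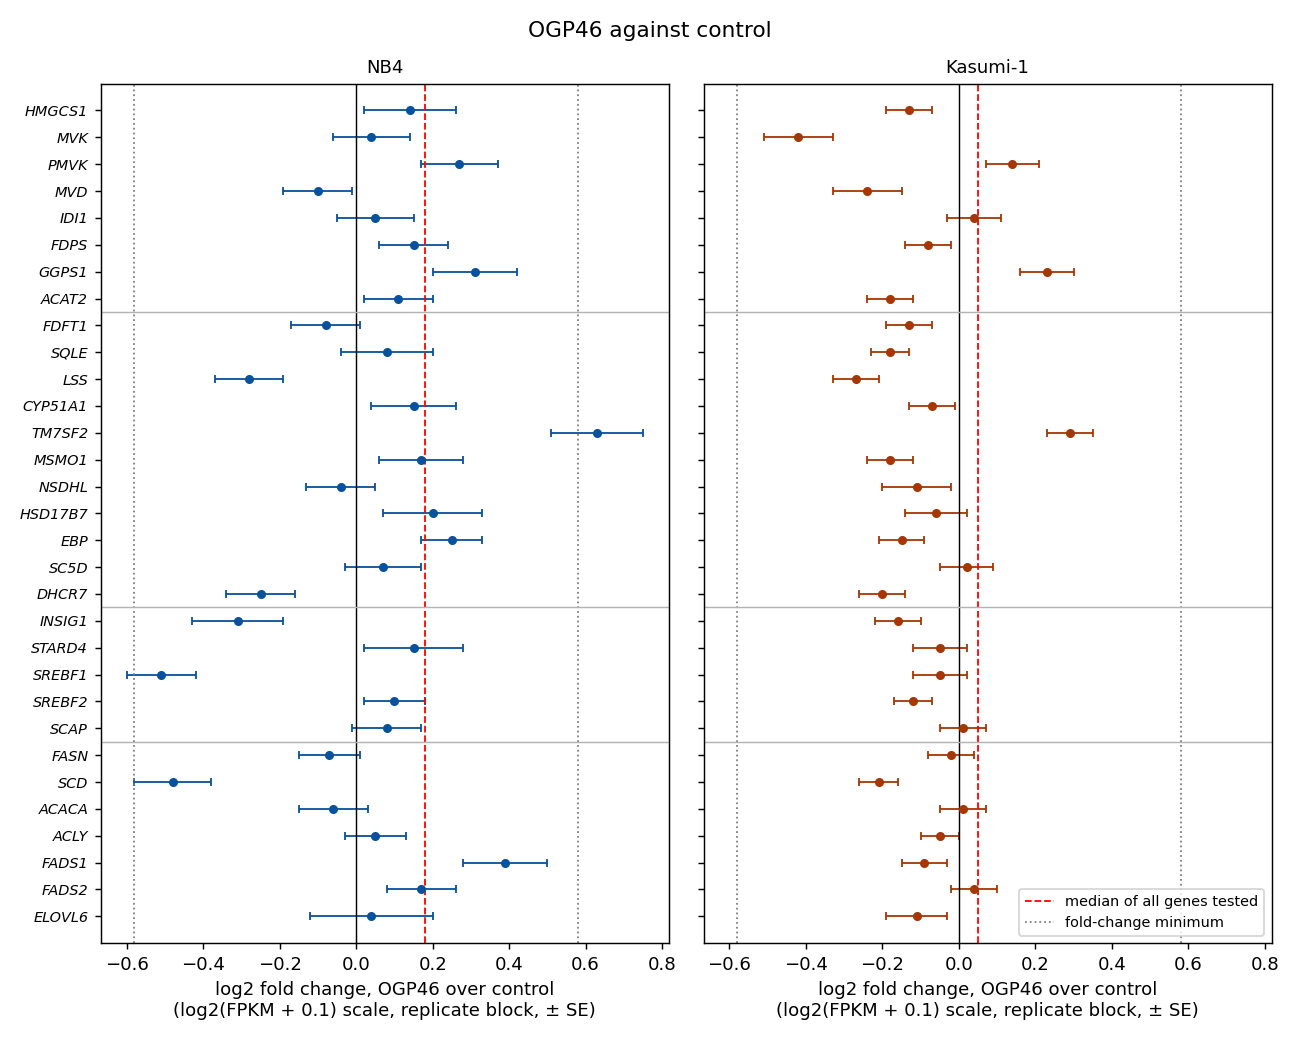
Log2 fold change of OGP46 over control for the 31 genes in NB4 and in Kasumi-1 (points, with SE as bars, from the fit with the sample number as a block; 3 samples per group). The dashed line is the median of all genes tested (0.18 in NB4, 0.05 in Kasumi-1) and the dotted lines are the fold minimum. It can be seen that TM7SF2 is the only gene beyond a dotted line, in NB4, and that 28 of the 31 genes lie left of the dashed line in Kasumi-1.

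In Kasumi-1 cells none of the 31 genes was called with OGP46, with or without the block (lowest adjusted p = 0.115 without the block, LSS). By limma, 8 of them had an unadjusted p below 0.05 without the block, and the share of all genes at that p alone was not counted. By the call rule the background was low here too, with 0.0169% of 11835 genes up-regulated and 0.0169% down-regulated. With the block it was 0.27% and 0.346%. The changes were small and mostly downward. The median log2 fold change was −0.13 in the sterol branch and −0.05 in the fatty acid branch, against 0.05 over all genes, and 28 of the 31 genes lay below that median. In all 3 pairs 14 genes were lower and 4 were higher, while 13.8% of all genes were lower and 31.7% were higher.

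MVK was at 2.49, 2.72 and 2.45 FPKM in the Kasumi-1 controls and at 2.03, 1.98 and 1.66 FPKM with OGP46. The groups did not overlap, and the log2 fold change was −0.42 (SE 0.09, adjusted p = 0.0477 with the block, 0.14 without it). TM7SF2 went from 24.1, 27.1 and 19.9 FPKM to 28.5, 30.9 and 27.0 FPKM (0.29, SE 0.06, adjusted p = 0.0446 with the block), higher in each pair although 1 treated sample lay within the control range. LSS was at 15.2, 15.6 and 14.0 FPKM and then 12.4, 12.2 and 12.5 FPKM, without overlap (−0.27, SE 0.06, adjusted p = 0.0505 with the block). SCD was at 64.6, 64.1 and 52.5 FPKM and then 58.3, 54.2 and 44.1 FPKM (−0.21, adjusted p = 0.0624 with the block). These fold changes were all under the fold minimum.

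DHCR7 was at 46.9, 51.7 and 42.3 FPKM in the Kasumi-1 controls and 42.9, 39.9 and 39.2 FPKM with OGP46 (−0.20). INSIG1 was at 24.9, 26.7 and 27.1 FPKM and then 24.4, 22.8 and 23.1 FPKM (−0.16), and SREBF2 at 32.6, 34.3 and 32.6 FPKM and then 30.9, 30.5 and 30.3 FPKM (−0.12). INSIG1 and SREBF2 had no overlap between the groups, and none of the 3 genes passed the test. Over the 31 genes in Kasumi-1, 6 were lower without overlap and 2 were higher (PMVK, 0.14, and GGPS1, 0.23). The share of all genes without overlap was not counted. ACAT2 went from 29.1, 28.6 and 27.3 FPKM to 28.1, 22.8 and 24.3 FPKM (−0.18), and MVD from 10.2, 10.97 and 9.52 FPKM to 10.5, 8.28 and 7.36 FPKM (−0.24). SREBF1 was at 5.11, 4.38 and 4.45 FPKM and then 4.70, 4.19 and 4.51 FPKM (−0.05). FADS1 was at 24.8, 25.2 and 23.0 FPKM and then 24.85, 21.89 and 21.9 FPKM (−0.09). ELOVL6 was at 3.01, 2.96 and 3.03 FPKM and then 2.62, 2.74 and 2.99 FPKM (−0.11). The changes of these last genes, SREBF1, FADS1 and ELOVL6, were within the spread of the samples.

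By adjusted p alone, 1 gene was higher (TM7SF2) and 1 was lower (MVK) with the block, against 2.44% and 1.12% of all genes. With median centring in the same fit, 1 gene was higher (TM7SF2, 0.22) and 13 were lower, against 2.94% and 7.14% of all genes. The 13 were HMGCS1, MVK, MVD and ACAT2 of the mevalonate branch, FDFT1, SQLE, LSS, MSMO1, EBP and DHCR7 of the squalene branch, INSIG1 and SREBF2 of the regulators, and SCD. Their log2 fold changes ran from −0.48 (MVK) to −0.18 (SREBF2), and the fold minimum was passed by none of them. Of the 9 genes that passed in NB4 and the 14 that passed in Kasumi-1 under this rule, 6 were shared with the same sign, namely TM7SF2 up and FDFT1, LSS, DHCR7, INSIG1 and SCD down. How many of all genes passed in both lines was not counted. These 6 therefore have no background to be set against.

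The effects in the 2 lines were set against each other in 1 model of all 12 libraries. None of the 31 genes passed the test of the difference (adjusted p below 0.05), with or without the block. Over all 12309 genes, 0% passed without the block by limma (1225 higher and 123 lower in NB4 at an unadjusted p below 0.05) and 1.93% with it. SREBF1 had a more negative change in NB4 than in Kasumi-1 (a difference of −0.46, SE 0.11, adjusted p = 0.0649 with the block, 0.559 without it). EBP differed by 0.40 (SE 0.09, adjusted p = 0.0608 with the block) and FADS1 by 0.48 (SE 0.12, adjusted p = 0.0871 with the block). With median centring and the block, SREBF1 passed (−0.60, SE 0.09, adjusted p = 0.0301).

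Other lipid genes were counted in lists outside the 31. Over all genes in NB4, 1.45% were called up-regulated without the block and 5.06% with it. With the block, 1 call in a list of 14 or 19 genes is therefore near the share of all genes. In NB4 with OGP46, 1 of 11 tested genes of sterol efflux and storage was called up-regulated without the block (NPC1, which exports cholesterol from lysosomes, at 2.75, 2.63 and 2.58 FPKM in the controls and 4.03, 4.28 and 3.94 FPKM with OGP46; 0.60, SE 0.10, adjusted p = 0.0335), and 2 with the block. The second was the cholesterol ester hydrolase NCEH1 (0.63, SE 0.11, adjusted p = 0.00234). The median of that list was 0.38, against 0.18 over all genes. Of 19 tested genes of related lipid synthesis, none was called without the block and 1 was up-regulated with it, the malic enzyme ME1 (0.93, SE 0.10, adjusted p = 0.000129), with a list median of 0.27. Of 14 genes of fatty acid oxidation, 1 was up-regulated with the block, the short-chain acyl-CoA dehydrogenase ACADS (0.60, SE 0.12, adjusted p = 0.00608), and the median was 0.15. None of 15 proliferation genes was called (median 0.10). In Kasumi-1 no gene of these 4 lists was called, and the medians were 0.13, 0.09, 0.01 and −0.05.

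Marker genes of other cell states moved with OGP46 in NB4. Over all genes there, 1.45% were called up-regulated and 0.111% down-regulated without the block, and 5.06% and 1.15% with it. The summed level of 7 monocyte and macrophage genes was 16.0 to 17.3 FPKM in the NB4 controls and 25.3 to 29.6 FPKM with OGP46, and 3 of 6 tested genes were called up-regulated without the block (CD68, ITGAM and ITGAX) and 5 with it. The defining monocyte marker CD14 was at 0.260, 0.0622 and 0.120 FPKM in the controls and 1.13, 0.342 and 0.655 FPKM with OGP46. The 5 promyelocyte granule genes summed to 1590 to 2810 FPKM with OGP46, and 0 of 5 were called without the block (adjusted p from 0.147 to 0.228) and 4 of 5 were down-regulated with it. ELANE, among these 4, was at 0.504, 3.30 and 14.5 FPKM in the controls and 0.321, 0.430 and 1.39 FPKM with OGP46. Its highest control level was in sample 3, which carried CD34. In Kasumi-1 the monocyte and macrophage genes summed to 14.1 to 18.5 FPKM in the controls and 19.7 to 22.8 FPKM with OGP46, and none was called. The 5 granule genes summed to 7760 to 8970 FPKM with OGP46 in Kasumi-1, below the sums of all 3 controls, and each was lower in all 3 pairs, but none was called. TRH, 1 of the 4 genes of t(8;21) cells, was down-regulated in Kasumi-1, from 34.9, 37.8 and 38.0 FPKM to 20.96, 18.7 and 22.4 FPKM (−0.84, SE 0.08, adjusted p = 0.0103 without the block). Their part in the changes of the 31 genes was not tested.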

How the data were processed

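RNA was sequenced in 12 libraries from a stranded mRNA kit. The deposited files give FPKM values per gene symbol, made by the authors, whose processing notes name Trimmomatic, HISAT2, Cufflinks, HTSeq and hg38. Versions and the strand setting of the counting are not given in the sources used here. The treatment time is 48 h in the labels, and the study's text also gives a longer time for the sequencing. Of the values, 632 were above 0 and below 1e-04, and 27 symbols per library that read as dates were not used. Such small values may come from reads shared between genes by estimate, which was not tested. FPKM were tested with limma 3.58.1 in R 4.3.3 as log2(FPKM + 0.1), with a trend, in genes of a mean of at least 0.1 FPKM, two-sided, with Benjamini-Hochberg adjustment over all genes tested. The call rule came from the study's methods: adjusted p below 0.05 together with a minimum change of 0.58 on the log2 scale. The difference between the lines was called by the adjusted p alone. The pseudocount understates changes of low genes. The script was tested on simulated data.

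Same-numbered samples deviated together over all genes tested, with correlations of 0.197 to 0.622 in NB4 and 0.157 to 0.395 in Kasumi-1, and 3 of 3 samples correlated best with their own number in each line. The number comes from the sample titles, and what it stands for is not stated there, although the study speaks of independent experiments. It was fitted as a block in an alternative. The other alternatives were pseudocounts of 1 and 0.01, no filter or a minimum of 1 FPKM, scaling to the same FPKM sum, median centring, quantile normalization, and leaving out each sample in turn. No block was used when a sample was left out.

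The 31 genes, the branches and the other gene lists were chosen with earlier results of these data known. Values in every sample were given for genes called in a comparison with or without the block, and otherwise for the 3 genes of each branch farthest from the median of all genes in an OGP46 comparison; values of EBP, PMVK, NPC1, NCEH1, ME1, ACADS, CTSG, ABCA1 and the single markers were chosen after they were seen. Promoter windows were taken from RefSeq (GRCh38.p14).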

Additional observations from a re-analysis of the deposited data

Results flagged for a closer look

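FDPS, EBP and SREBF2 were flagged because each was higher with OGP46 in all 3 same-numbered NB4 pairs and lower in all 3 Kasumi-1 pairs. Of all genes, 52.9% were higher in all 3 NB4 pairs and 13.8% were lower in all 3 Kasumi-1 pairs. The share of all genes with both patterns was not counted, so the flag does not set these genes apart. The NB4 minus Kasumi-1 difference of the log2 fold changes was 0.24 for FDPS, 0.40 for EBP and 0.22 for SREBF2. The limma test of the difference did not pass for any of them (adjusted p = 0.487, 0.357 and 0.672 without the replicate block, and 0.26, 0.0608 and 0.208 with it). Relative to the median of all genes, FDPS and SREBF2 lay below it in both lines (by 0.03 and 0.07 in NB4, and by 0.13 and 0.16 in Kasumi-1, on the log2 scale), whereas EBP lay 0.07 above it in NB4 and 0.20 below it in Kasumi-1.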

How the results depend on the processing

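The depth is unknown, 3 samples per group leave small changes undetected, and what the sample number stands for is not known. In NB4 the 31 genes had 0 calls in either direction, except 1 higher with the replicate block (TM7SF2, 0.63) and 2 lower with the replicate block and median centring together (SREBF1, −0.71, and SCD, −0.68). Over all genes in NB4, 170 were called higher and 13 lower. The replicate block gave 595 and 135, and with median centring 214 and 177. Pseudocount 1 gave 111 and 6, no filter gave 6 and 0, and TPM scaling, median centring or quantile normalization gave 0. Leaving out 1 sample gave from 0 (without control 1 or OGP46 3) to 368 higher (without OGP46 2). These rescalings moved the median of all genes in NB4 from 0.18 to 0.06, −0.02 and −0.01. MVK reversed in NB4 under them (−0.08, −0.15 and −0.17, and −0.15 with the block), as did SCAP (−0.04, −0.11, −0.10 and −0.11). The fits without 1 sample used no block, so the same-numbered partner of the left-out sample stayed in unmatched. In these fits the range in NB4 crossed 0 for MVK (−0.15 to 0.26), SCAP (−0.01 to 0.15), ACACA (−0.19 to 0.12), DHCR7 (−0.69 to 0.20), FASN (−0.29 to 0.15), INSIG1 (−0.71 to 0.19) and MVD (−0.24 to 0.11), and in Kasumi-1 for SREBF1 (−0.09 to 0.02). In the same-numbered NB4 pairs, DHCR7 and MVD were lower in all 3 and SCAP was higher in all 3, while MVK, ACACA, FASN and INSIG1 went both ways. The sterol branch minus all genes ranged from −0.31 (without OGP46 2) to 0.09 (without control 2) in NB4, and was 0.06 without the filter. It kept its sign in Kasumi-1 (−0.21 to −0.14), as did the fatty acid branch (−0.11 to −0.08). In Kasumi-1 the 31 genes had 0 calls under every setting run. Over all genes there, 2 and 2 calls became 32 and 41 with the replicate block, 25 and 66 with median centring as well, 4 and 16 with median centring, 13 and 5 with TPM scaling, 13 and 11 at a minimum of 1 FPKM, and 0 to 8 higher and 0 to 7 lower without 1 sample. Between the control groups, 14 genes were lower in each fit without 1 sample, and 12 with no filter. The 2 higher genes became 1 with no filter and ranged from 1 to 3 when 1 sample was left out. With no filter MVK, HMGCS1 and DHCR7 missed the adjusted p (0.0523, 0.0724 and 0.051). TPM scaling moved the split over all genes from 2790 higher and 3659 lower to 3585 and 3004. The sample numbers did not pair the lines (correlations of −0.0487 to 0.0176), and the replicate block changed no call of the 31 genes there. For the difference between the OGP46 effects, 1 gene was lower with the replicate block and median centring (SREBF1), and 0 passed under the other settings. The causes of these changes were not tested.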
